A study of Mus musculus with 2 samples.

Results

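The genes of endosomal sorting compared here are the sorting nexins (Snx), the vacuolar protein sorting genes (Vps) and the charged multivesicular body protein genes (Chmp). They were chosen by name, as genes whose symbol begins with Snx, Vps or Chmp followed by a digit and that had a probe set for a single gene, and 75 of the 18194 genes on the array met this rule. Of the 75, 30 were Snx, 35 Vps and 10 Chmp genes. The brightest probe set, by its mean over both arrays, stood for each gene. Total RNA came from a pair of spleen dendritic cell (DC) populations of C57BL/6 mice, CD8+ and CD8-, gated on CD11c with CD3+ and B220+ cells excluded, split by CD8a at the surface, and not stimulated. Both were expanded in vivo by B16 melanoma cells that produced Flt3 ligand, the cytokine on which DC development depends, injected 10 to 12 days before the sort. Each population was measured on 1 array, so no value has a replicate and no test was made. How many mice each array stands for is not given in the sources used here, and all values come from mice that carried this tumour.

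Proteins taken into a cell reach the early endosome, from which they are either sent back or passed on for destruction. Retromer, retriever and the sorting nexins gather receptors into tubules that return them to the surface or the Golgi, while the ESCRT complexes pack ubiquitin-tagged receptors into inner vesicles that end in the lysosome. Sorting nexins share a phox (PX) domain, which in many of them binds the endosomal lipid phosphatidylinositol 3-phosphate (PI3P). The HOPS and CORVET complexes tether endosomes before they fuse, and the GARP complex tethers vesicles at the Golgi. DCs use these routes to bring antigen to the compartments where peptides meet MHC molecules, and CD8+ DCs are known for presenting captured antigen on MHC class I.

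Most endosomal sorting genes had nearly the same level in both populations, and the largest differences were those of Snx22, Snx24 and Vps9d1, all higher in CD8+ DCs. Genes were taken as measured if either array gave a log2 signal of at least 3.85, which is the table's median. By this floor 68 of the 75 genes were measured, and their log2 difference, CD8+ minus CD8-, had a median of 0.01 (quartiles -0.19 and 0.22). The same over all 11404 measured genes was 0.03 (quartiles -0.24 and 0.26). At a threshold of 2-fold, 3 of the 68 (4.41%) were higher in CD8+ DCs, against 3.55% of all measured genes. None of the 68 was 2-fold higher in CD8- DCs, against 5.97% of all measured genes. At 1.5-fold, 4 (5.88%, against 8.49% of all measured genes) lay on the CD8+ side and 6 (8.82%, against 11.5%) on the CD8- side. At 4-fold there was none on either side, against 0.859% of all measured genes higher in CD8+ DCs and 2.10% higher in CD8- DCs. Counted in either direction, 9.52% of all measured genes passed 2-fold. Of the 68, 50 (73.5%) differed by at most 0.3 on the log2 scale, as did 57.4% of all measured genes. By sign alone 38 (55.9%) were higher and 29 lower in CD8+ DCs, against 52.6% higher among all measured genes, and Chmp3 had the same value on both arrays. With each array centred on its median the split was 32 and 36, so the sign of the small differences is not read further. Fewer cells that express a gene and less of its RNA per cell cannot be told apart in such bulk samples.

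**Figure D1:**
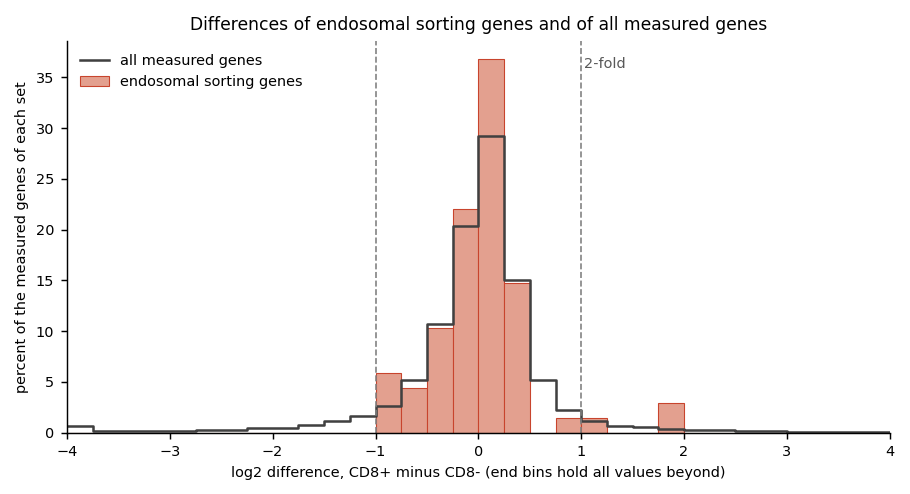
Share of measured genes (vertical axis, percent of each set) in steps of the log2 difference, CD8+ minus CD8- (horizontal axis), for the 68 measured endosomal sorting genes (bars) and for all 11404 measured genes (line). Dashed lines mark 2-fold. The bars lie around 0, with 3 genes beyond 2-fold on the CD8+ side and none on the CD8- side.

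The labels of the arrays were borne out by their marker genes. All 6 CD8+ DC markers with a single-gene probe set (Cd8a, Xcr1, Cadm1, Tlr3, Itgae and Ly75) passed 2-fold in favour of CD8+ DCs, and all 5 CD8- DC markers (Itgam, Sirpa, Cx3cr1, Cd4 and Irf4) did so in favour of CD8- DCs. Cd8a is also the marker that split the populations. All 6 CD8+ DC markers were still above the floor on the CD8- array. Their values there were 8.61 for Tlr3, 8.45 for Xcr1, 7.22 for Cadm1, 5.90 for Ly75, 5.15 for Cd8a and 4.68 for Itgae. On the CD8+ array, Sirpa was at 4.49 and Cd4 at 4.68, while Itgam, Cx3cr1 and Irf4 were below the floor. Of 12 markers of T, B, NK, erythroid or B16 melanoma cells, 3 reached the floor on either array, namely Cd3e (4.76 in CD8+ and 4.90 in CD8- DCs), Ms4a1 (5.74 and 4.99) and Pmel (4.40 and 4.30). Some markers of other myeloid cells differed between the arrays. Of the plasmacytoid DC markers, Ccr9 was at 8.03 in CD8+ and 5.94 in CD8- DCs, Tcf4 at 5.47 and 7.55, Bst2 at 7.37 and 7.80, and Siglech at 3.71 and 4.04. Of the monocyte and macrophage markers, Adgre1 was at 4.63 in CD8+ and 8.22 in CD8- DCs and Vcam1 at 5.52 and 4.66, while Mertk lay below the floor at 2.91 on both. Their part in the differences of the sorting genes was not tested.

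The 10 genes past 1.5-fold were spread over 6 of the 14 role groups, and 5 of them had a promoter in the RefSeq table. The 250 bases before the first listed transcription start of each are given, for Snx22 and Vps37c on the CD8+ side and for Snx18, Vps33a and Snx30 on the CD8- side. The sequences are RefSeq's on the GRCm38.p6 build, written 5' to 3' on the strand of the gene, at chr9:66069760-66070009 on the minus strand for Snx22, chr19:10688485-10688734 on the plus strand for Vps37c, chr13:113618565-113618814 on the minus strand for Snx18, chr5:123573016-123573265 on the minus strand for Vps33a and chr4:59805400-59805649 on the plus strand for Snx30. Capitals mark the GC box GGGCGG, a motif of many promoters of widely expressed genes, the E-box CACGTG, a site of bHLH factors such as the lysosomal regulator TFEB, and the TATA box TATAAA, all searched on both strands.
Snx22: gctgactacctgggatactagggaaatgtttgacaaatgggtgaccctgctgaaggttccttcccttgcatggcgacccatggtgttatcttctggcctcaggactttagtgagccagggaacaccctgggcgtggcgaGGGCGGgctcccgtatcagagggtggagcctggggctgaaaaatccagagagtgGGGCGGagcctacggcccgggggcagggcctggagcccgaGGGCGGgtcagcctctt
Vps37c: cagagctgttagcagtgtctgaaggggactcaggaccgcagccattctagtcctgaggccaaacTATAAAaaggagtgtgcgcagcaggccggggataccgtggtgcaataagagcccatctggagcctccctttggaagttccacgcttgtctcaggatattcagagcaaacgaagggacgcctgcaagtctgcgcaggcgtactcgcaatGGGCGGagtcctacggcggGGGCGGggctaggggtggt
Snx18: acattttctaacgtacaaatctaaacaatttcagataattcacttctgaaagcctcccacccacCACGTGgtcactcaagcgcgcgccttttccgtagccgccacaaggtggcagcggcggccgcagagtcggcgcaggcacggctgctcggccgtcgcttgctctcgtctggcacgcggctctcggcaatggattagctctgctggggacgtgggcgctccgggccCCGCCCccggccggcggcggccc
Vps33a: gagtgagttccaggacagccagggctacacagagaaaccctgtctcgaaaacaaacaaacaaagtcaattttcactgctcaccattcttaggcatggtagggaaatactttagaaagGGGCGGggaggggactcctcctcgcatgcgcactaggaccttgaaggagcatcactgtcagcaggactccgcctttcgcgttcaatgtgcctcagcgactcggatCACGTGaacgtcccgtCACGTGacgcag
Snx30: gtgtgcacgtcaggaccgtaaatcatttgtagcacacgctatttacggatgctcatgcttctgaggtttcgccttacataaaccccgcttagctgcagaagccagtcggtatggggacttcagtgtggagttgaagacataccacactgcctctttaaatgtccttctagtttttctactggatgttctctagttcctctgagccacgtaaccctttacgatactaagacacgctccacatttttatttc
The Snx22 region held 3 GC boxes, the Vps37c region 2 and a TATA box, the Snx18 region 1 and an E-box, and the Vps33a region 1 and 2 E-boxes, while the Snx30 region held none of these motifs. The GC box was in the same window of 58.3% of 9252 measured genes with a listed promoter, the E-box in 8.58% and the TATA box in 6.18%. The AP-1 motif TGANTCA, searched on both strands and found in 4.31% of these genes, had no match in these 5 windows. The second listed start of Vps37c, outside the region shown, held 1 AP-1 match.

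Promoters of the group as a whole were close to those of measured genes in general. Of the 75 genes, 49 had a promoter in the RefSeq table, 45 of them measured. In the 250 bases before the first listed start, the 45 measured genes had a median GC content of 62.0% (quartiles 57.2% and 67.6%) and a median of 18 CpG sites (quartiles 12 and 23). The same over the 9252 measured genes was 59.6% (quartiles 53.2% and 66.4%) and 16 (quartiles 9 and 23). A GC box was found in 29 of the 45 (64.4%), against 58.3% of measured genes, an E-box in 6 (13.3%, against 8.58%) and a TATA box in 2 (4.44%, against 6.18%). AP-1 was found in none of the 45 at the first listed start, against 4.31%. At a further listed start, not counted here, Snx10, Snx29, Vps13d and Vps37c each held 1 AP-1 match. A match describes the letters and is not a binding site.

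Snx22 and Snx24 differed most and by nearly the same amount. Both encode small sorting nexins made up largely of the PX domain. Snx22 had a log2 signal of 8.49 on the CD8+ array and 6.56 on the CD8- array, a 3.83-fold difference. Snx24 was at 6.84 on the CD8+ array and 4.93 on the CD8- array, a 3.75-fold difference. Each was measured by a single probe set, so no other probe set bears on these values, and that of Snx24 carries the suffix _a_at, given to probes shared by transcripts of a gene. Ordered by the difference in favour of CD8+ DCs, Snx22 stood 104th and Snx24 112th of the 11404 measured genes.

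Vps9d1 was the other gene past 2-fold. It encodes a protein with a VPS9 domain, the fold that in other proteins activates Rab5, the GTPase of early endosomes. Its signal was 7.01 on the CD8+ array and 5.79 on the CD8- array, a 2.33-fold difference. A second measured probe set had 5.11 on the CD8+ array and 4.63 on the CD8- array, so both favoured CD8+ DCs but by 1.22 and 0.48 on the log2 scale. With all probe sets of the gene averaged the difference was 0.57, under both thresholds. This average included a further probe set that lay below the floor, at 1.66 on both arrays.

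**Figure D2:**
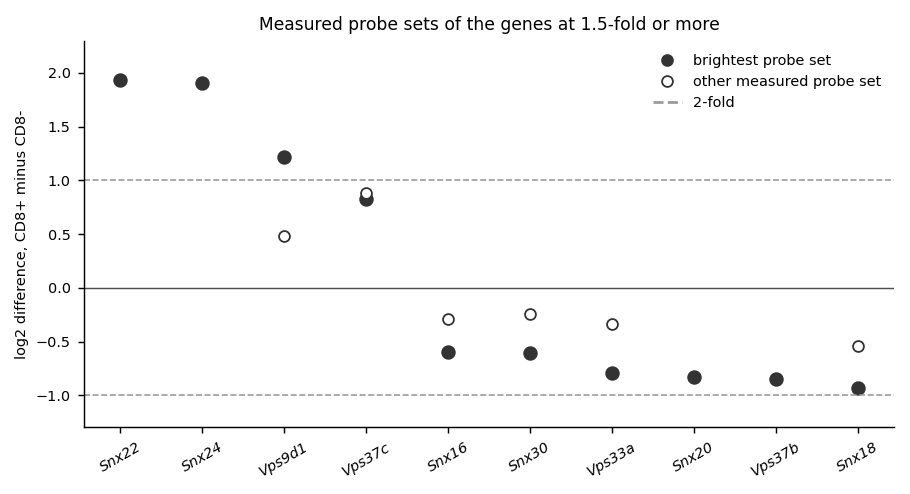
Log2 difference, CD8+ minus CD8- (vertical axis), of each measured probe set of the 10 endosomal sorting genes at 1.5-fold or more, with genes along the horizontal axis. Filled points are the brightest probe set and open points the others, and dashed lines mark 2-fold. Where a gene had a second measured probe set it lay on the same side of 0.

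Among the other sorting nexins of the group that holds Snx22 and Snx24, the differences ran the other way or were small. This group takes the sorting nexins left over from the other role groups. Snx20, which binds the selectin ligand PSGL-1 in leukocytes, was at 7.85 on the CD8+ array and 8.67 on the CD8- array, a difference of -0.83. Its close relative Snx21 was at 6.50 in CD8+ and 6.89 in CD8- DCs, but its probe sets disagreed, at -0.39 and 0.36. Snx16, a sorting nexin of early and late endosomes, was at 4.82 in CD8+ and 5.41 in CD8- DCs, and its difference of -0.60 was -0.29 at its other measured probe set. The 11 genes of this group, Snx22 and Snx24 included, thus ranged from -0.83 to 1.94. This was the widest range of the 14 role groups, and the group was also the largest of them. Snx3, which carries the Wnt carrier protein Wls into retromer tubules, was at 10.31 in CD8+ and 10.01 in CD8- DCs. Its relative Snx12 was at 6.88 and 7.06. Snx10, known for its need in bone-resorbing osteoclasts, had 8.68 in CD8+ and 8.67 in CD8- DCs. The remaining genes, Snx11 (-0.28), Snx15 (-0.28) and Snx29 (0.21), were under 1.5-fold.

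Of the SNX9 family, 1 of the 2 measured genes passed 1.5-fold in favour of CD8- DCs, against 11.5% of all measured genes. These proteins join a curved BAR domain to an SH3 domain and act with dynamin and actin when membrane is pinched off. Snx18, which also serves autophagy, was at 5.90 on the CD8+ array and 6.83 on the CD8- array, a 1.90-fold difference and the largest in favour of CD8- DCs among the 68. Its second probe set differed by -0.54. Snx9, which acts in clathrin-mediated uptake, was at 7.77 in CD8+ and 8.25 in CD8- DCs, with probe sets at -0.48 and -0.67. Snx9 was thus under 1.5-fold at its brightest probe set, and the third member, Snx33, did not reach the floor (3.22 and 3.13).

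The retromer core was even between the populations. Vps35, its scaffold, was at 9.77 in CD8+ and 9.88 in CD8- DCs, and Vps29, a small subunit shared with retriever, was at 9.33 and 9.18. The cargo-binding subunits were at 8.38 in CD8+ and 8.19 in CD8- DCs for Vps26a and at 6.71 and 6.75 for Vps26b. No subunit differed by more than 0.19 at its brightest probe set. Retriever, a related complex that recycles integrins with Snx17, was also even, at 7.77 in CD8+ and 7.51 in CD8- DCs for Vps26c and 7.61 and 7.76 for Vps35l. The 4 measured probe sets of Vps35l lay between -0.30 and -0.12.

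Sorting nexins with a BAR domain, which bend the tubules, were mostly even too. Snx1 and Snx2 pair with Snx5 and Snx6 in the coat that returns the mannose 6-phosphate receptor to the Golgi. Snx2 was at 9.70 in CD8+ and 9.26 in CD8- DCs, while Snx1 was at 8.13 and 8.20. Snx5 was at 10.07 in CD8+ and 10.27 in CD8- DCs, and its 5 probe sets lay between -0.34 and -0.14. Snx6 was at 7.82 and 7.93. None of the 4 differed by 1.5-fold. Snx30, a partner of Snx4 in recycling and autophagy, was the 1 gene of the 8 measured in this group to reach 1.5-fold. It was at 5.85 in CD8+ and 6.46 in CD8- DCs, though its other probe set differed by -0.24. Of all measured genes, 11.5% reached 1.5-fold in favour of CD8- DCs. Snx4 itself was at 7.89 in CD8+ and 7.68 in CD8- DCs, and its other partner Snx7 was below the floor (3.43 and 3.71). Snx8 (-0.26) and Snx32 (0.14, with values of 3.99 and 3.84 at the floor) were under 1.5-fold.

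The adaptors with a FERM-like domain recognise sorting signals in receptor tails. Snx17 was at 10.60 in CD8+ and 10.40 in CD8- DCs. Snx27, which also carries a PDZ domain and works with retromer, was at 5.73 and 5.93, and Snx31 was below the floor (2.82 and 2.59). The sorting nexins that carry RGS or PXA domains, several of which sit in the endoplasmic reticulum membrane, were all under 1.5-fold at their brightest probe set. These differences were 0.24 for Snx13, 0.19 for Snx14, 0.32 for Snx19 and 0.28 for Snx25. For comparison, 0.30 was the SD of differences pooled within genes with several probe sets, over the whole array, and 1 probe set each of Snx13 and Snx19 was slightly below 0 (-0.09 and -0.10).

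The ESCRT-I genes held a pair of opposite differences. ESCRT-I takes ubiquitin-tagged cargo into the forming vesicle, and each complex holds 1 of the alternative VPS37 subunits. Vps37c was at 8.64 on the CD8+ array and 7.82 on the CD8- array, a 1.77-fold difference, with its 2 probe sets at 0.82 and 0.88. Vps37b ran the other way, at 4.99 on the CD8+ array and 5.84 on the CD8- array, a 1.80-fold difference from a single probe set. Vps37a lay between them, at 6.45 in CD8+ and 6.23 in CD8- DCs, with 3 probe sets from 0.22 to 0.67, and Vps37d was below the floor (3.55 and 3.64). Both Vps37c probe sets carry the suffix _s_at, given to probes that may match more than 1 gene, so the gene has no value once such probe sets are left out. The shared subunit Vps28 was at 9.51 in CD8+ and 9.82 in CD8- DCs. Of the ESCRT-II genes, Vps36 was at 7.81 and 7.77, and Vps25 was below the floor at its single-gene probe set (3.14 and 2.96). A pair of probe sets shared by Vps25 and Ramp2, not counted above, were bright and even, at 7.94 in CD8+ and 7.88 in CD8- DCs and at 8.43 and 8.33.

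ESCRT-III, the filament that cuts the neck of the vesicle, was the most even of the 3 name classes. None of its 9 measured Chmp genes reached 1.5-fold, against 8.49% of all measured genes on the CD8+ side and 11.5% on the CD8- side. The median absolute difference of the 9 was 0.10, against 0.14 for the Vps genes, 0.28 for the Snx genes and 0.25 for all measured genes. Chmp4b, the main filament subunit, was at 10.33 in CD8+ and 10.32 in CD8- DCs, and Chmp2a, which recruits the VPS4 ATPase, was at 9.32 and 9.26. Its relative Chmp2b had the largest difference of the group, at 7.55 in CD8+ and 7.97 in CD8- DCs, with both probe sets below 0 (-0.41 and -0.47). Chmp5, which binds the VPS4 cofactor Vta1, was at 10.00 and 9.77. Chmp1a (0.27), Chmp1b (0.26), Chmp6 (0.07), Chmp7 (0.10) and Chmp3 (0.00) completed the measured genes, although a second Chmp3 probe set differed by -0.64. Identical values on both arrays were found for the brightest Chmp3 probe set (6.93) and for 7.30% of all probe sets. The cause of such ties was not tested. Chmp4c was below the floor (3.59 and 3.67). The ATPases that take the filament apart were even as well, with Vps4a at 6.90 in CD8+ and 6.88 in CD8- DCs and Vps4b at 9.73 and 9.84.

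**Figure D3:**
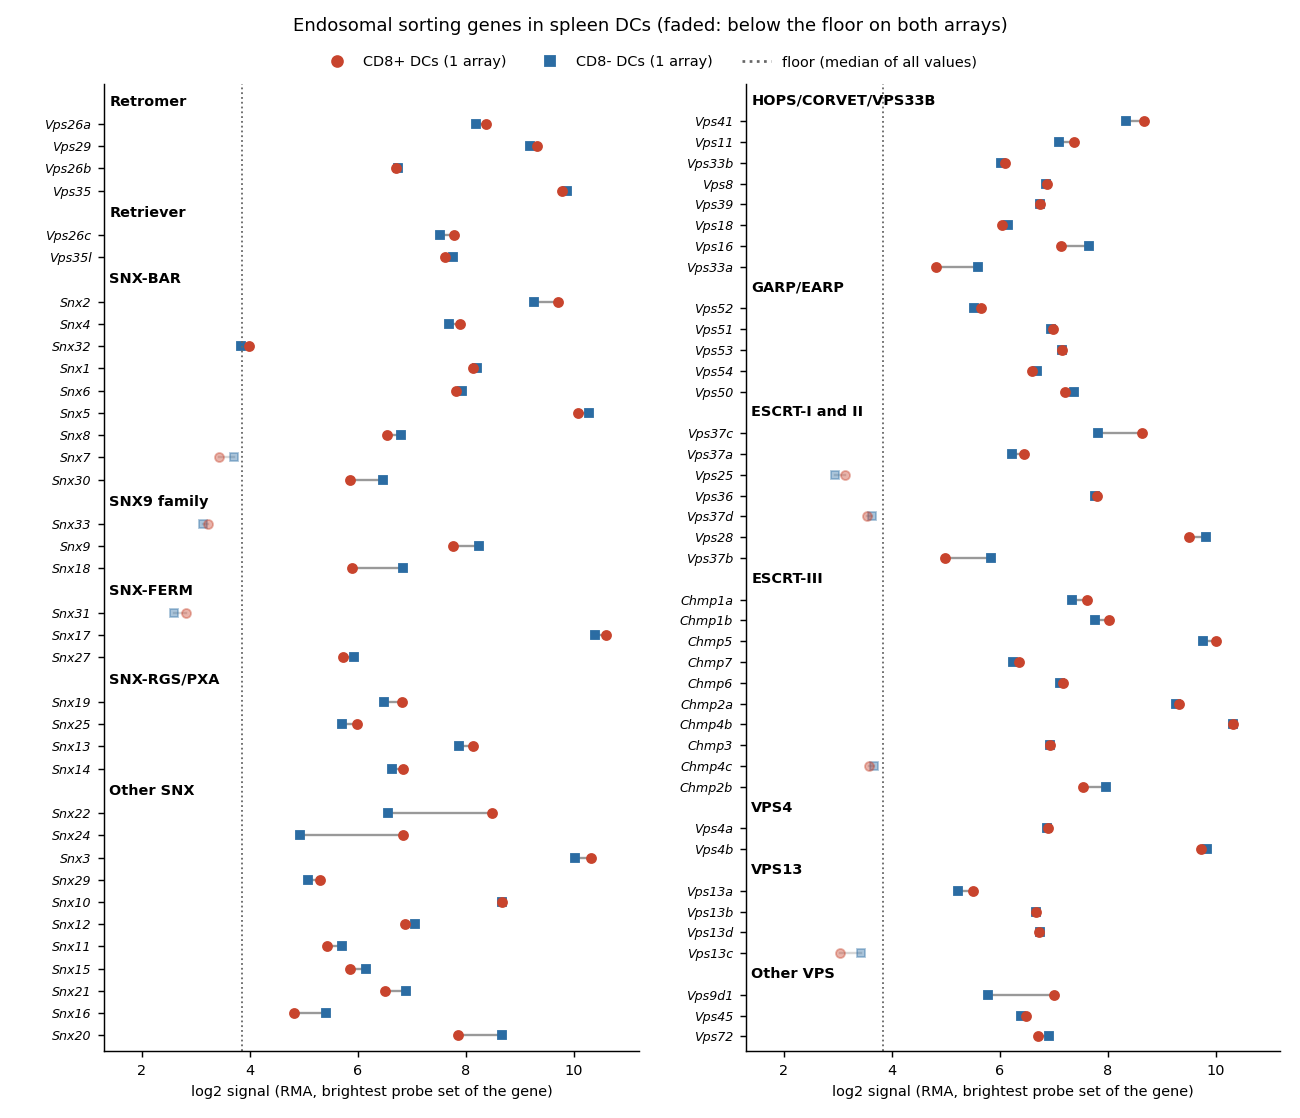
Log2 signal (horizontal axis) of all 75 endosomal sorting genes in CD8+ DCs (circles) and CD8- DCs (squares), 1 array each, grouped by role and ordered in each group by the difference. Signals are those of each gene's own probe set and are compared within a row. Faded symbols are the 7 genes below the floor (dotted line) on both arrays, and the long bars are those of Snx22, Snx24 and Vps9d1.

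Of the fusion and tethering complexes, HOPS and CORVET differed in single subunits. Vps33a, the SNARE-binding subunit that both complexes share, was at 4.81 on the CD8+ array and 5.61 on the CD8- array, a 1.74-fold difference, and its second probe set differed by -0.34. Vps16, its direct partner in the complex, also had its higher value in CD8- DCs (7.14 in CD8+ and 7.65 in CD8-), below 1.5-fold. The other shared subunits, Vps11 (0.29) and Vps18 (-0.12), were under 1.5-fold. Of the subunits that set the complexes apart, Vps41 of HOPS was at 8.67 in CD8+ and 8.34 in CD8- DCs, with 3 probe sets from 0.34 to 0.45, while Vps39 of HOPS was at 6.75 on both and Vps8 of CORVET at 6.87 and 6.86. A second measured probe set differed by -0.46 for Vps8 and by -0.19 for Vps39. Vps33b, the relative of Vps33a that acts in a separate complex, was at 6.09 in CD8+ and 6.03 in CD8- DCs. The 5 GARP and EARP genes were among the most even at their brightest probe sets, with differences from -0.18 for Vps50 to 0.13 for Vps52. Between them were Vps51 (0.04), Vps53 (0.01) and Vps54 (-0.09), but the 4 measured probe sets of Vps54 ranged from -0.41 to 0.40.

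The remaining Vps genes do not belong to these complexes. Vps13a was at 5.50 in CD8+ and 5.24 in CD8- DCs, Vps13b at 6.68 on both and Vps13d at 6.72 and 6.74, while Vps13c was below the floor (3.05 and 3.43). The 4 measured probe sets of Vps13d ranged from -0.51 to 0.07. The Vps13 genes encode large bridges that move lipids between membranes. Vps45, which works with SNAREs on early endosomes, was at 6.49 in CD8+ and 6.40 in CD8- DCs. Vps72 shares the name but encodes a chromatin protein that binds the histone variant H2A.Z, and it was at 6.71 and 6.92.

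Probe sets of the same gene gave a view of the spread of differences within genes. Of the 68 measured genes, 40 had several measured probe sets, and in 23 of the 40 all of them had the same sign. The median range between the probe sets of a gene was 0.27, and 6 genes ranged over more than 0.5, namely Vps54, Snx21, Vps9d1, Chmp3, Vps13d and Vps29. Pooled within genes, the SD of these differences was 0.21 for the 40 genes, against 0.30 for the 5183 genes with several measured probe sets on the array. This spread does not include variation between mice, sorts or hybridisations.

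The genes that endosomal sorting proteins work with were mostly under 2-fold too, as were most measured genes. The list of such partners held 61 genes with a single-gene probe set, of which 59 were measured, with a median difference of 0.04. It was chosen with earlier results of these data known, so a contrast between its parts is not read as a trait of cargo. At 2-fold, 1 partner (1.69%, against 3.55% of all measured genes) favoured CD8+ DCs and 3 (5.08%, against 5.97%) favoured CD8- DCs, and all 4 were among the 8 measured genes of the cargo list. None of the other 51 partners reached 2-fold at its brightest probe set, against 9.52% of all measured genes in either direction. Further measured probe sets of Ccdc93 (1.31), Vamp4 (-1.20) and Mtm1 (-1.49) did reach it. The cation-independent mannose 6-phosphate receptor gene Igf2r, whose protein carries lysosomal enzymes and is returned by retromer and the Snx1, Snx2, Snx5 and Snx6 coat, was at 7.50 on the CD8+ array and 3.88 on the CD8- array, with probe sets at 3.63 and 3.01. The CD8- value of Igf2r was just above the floor, and that of its second probe set was below it (3.58). Wls, the Snx3 cargo, was at 2.16 on the CD8+ array and 5.87 on the CD8- array. With the floor in place of its CD8+ value, the gap in favour of CD8- DCs came to at least 4.07-fold. The transferrin receptor gene Tfrc was at 6.30 in CD8+ and 8.34 in CD8- DCs, and its 6 probe sets lay between -2.33 and -1.49. Among these, CD8+ values of 3.73 (the probe set at -2.33), 3.54 and 3.32 were below the floor. The sorting receptor gene Sorl1 was at 6.88 in CD8+ and 8.80 in CD8- DCs, with probe sets from -2.00 to -0.53.

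The other cargo genes differed less. M6pr, the cation-dependent mannose 6-phosphate receptor gene, was at 10.33 in CD8+ and 10.13 in CD8- DCs, Sort1 at 6.53 and 6.87, the iron transporter gene Slc11a2 at 6.52 and 5.86, and the Snx17 cargo gene Lrp1 at 3.64, below the floor, and 4.53. Sorcs1 and Sorcs2, relatives of Sorl1, were below the floor on each array. Of the partners in complexes, Washc2, the WASH subunit that binds Vps35, was at 8.23 in CD8+ and 8.99 in CD8- DCs, with 4 probe sets from -0.76 to -0.41. The largest differences of the other lists were those of Hgs in ESCRT-0 (0.34), Cc2d1a among the ESCRT partners (0.74), Usp8 of the endosomal deubiquitinases (0.44), Atg14 of the class III PI3-kinase complexes that make PI3P (-0.67), Mtm1 of PI3P turnover (0.63), Vipas39, the partner of Vps33b (0.41), Commd8 of the COMMD complex that joins retriever (0.58) and the SNARE gene Vamp4 at the Golgi (-0.54). Of the 3 measured probe sets of Mtm1, however, 2 were below 0, the lowest at -1.49.

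**Figure D4:**
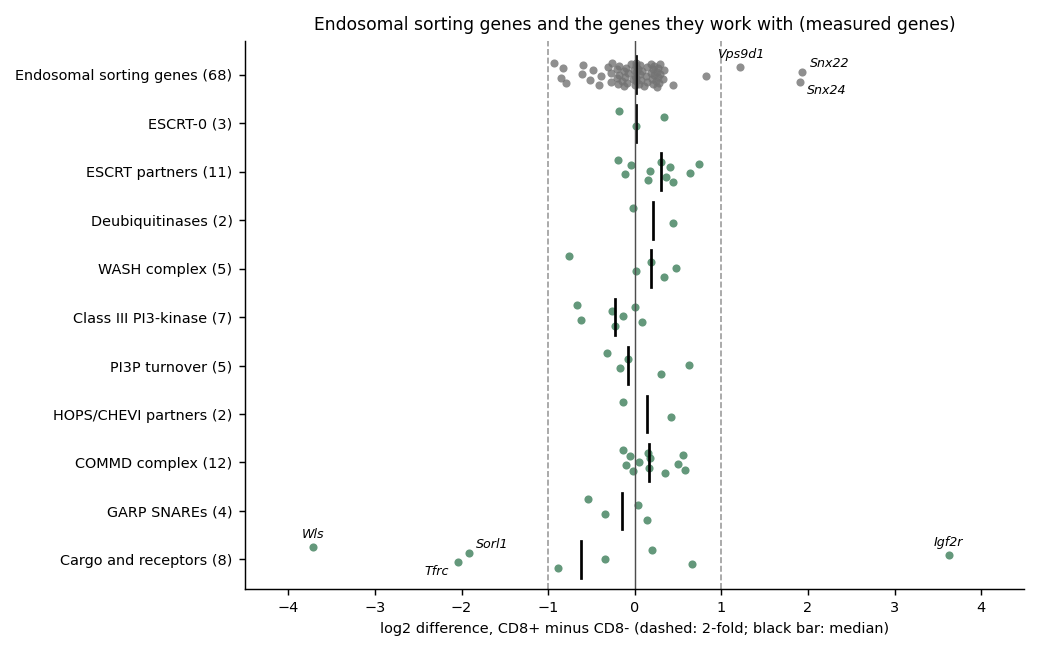
Log2 difference, CD8+ minus CD8- (horizontal axis), of each measured endosomal sorting gene (top row) and of each measured partner gene by list, with the number of genes in brackets. Points are genes, black bars are medians and dashed lines mark 2-fold, and the 4 partners past 2-fold (Igf2r, Wls, Tfrc and Sorl1) are all in the cargo row. The lists were chosen with earlier results of these data known, so the rows are not contrasted.

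The counts past 2-fold were also taken by signal range. Of the 19 measured endosomal sorting genes with a mean log2 signal of 8 or more, none reached 2-fold, against 7.95% of the 2314 measured genes in that range. Between 6 and 8, 2 of 38 did, against 9.90% of 4070 genes, and below 6, 1 of 11 did, against 9.94% of 5020 genes. The median absolute difference was 0.20, 0.18 and 0.28 in these ranges, against 0.25, 0.25 and 0.26 for all measured genes.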

How the data were processed

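Biotinylated cRNA from CD8+ and CD8- DCs was hybridised to Affymetrix arrays of 45101 probe sets, 1 array per population. The deposited table holds log2 signal values, which the authors made with RMA per the submitters' processing notes, a method of background correction, quantile normalisation and probe summary. For its version and for which arrays were normalised jointly, nothing is stated, and a shift shared by most genes would not be visible after quantile normalisation.

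Gene names came from the platform annotation, updated by gene identifier to the RefSeq table of GRCm38.p6. Of the 34958 single-gene probe sets, 159 belonged to the 75 endosomal sorting genes, and all 75 identifiers matched. The brightest probe set stood for each gene. The floor was the median of all values (3.85), and 11404 genes reached it on at least 1 array. Where the dimmer value was below the floor, folds use the floor and are bounds. Genes are described by size (2-fold, and 1.5-fold for full description, with the largest difference in each role or partner list named too). No test was made, since the number of arrays limits the precision. Members, lists and the naming rule were chosen with earlier results of these data known. Alternatives were centring, a lowess trend (span 0.3), other filters, averaging of probe sets, leaving out _x_at, _s_at and _a_at probe sets, flooring, the annotation's symbols, and 1.5-fold and 4-fold thresholds. Python 3.11.15, numpy 2.4.6, pandas 2.3.3 and statsmodels 0.14.6 were used, and the gene summary was tested on simulated data.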

Additional observations from a re-analysis of the deposited data

How the results depend on the processing

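Snx22 stayed past 2-fold in favour of CD8+ DCs under all 8 alternatives that keep the 2-fold threshold. Snx24 did so wherever it was measured, but its only probe set is lost without the _x_at, _s_at and _a_at probe sets. Vps9d1 fell under 2-fold with its probe sets averaged (0.57), an average that included a probe set below the floor on both arrays. No endosomal sorting gene was 2-fold higher in CD8- DCs under any of these 8. With a 4-fold threshold, 0 endosomal sorting genes were higher in CD8+ DCs, and with 1.5-fold 6 were higher in CD8- DCs. With 1.5-fold, 5 of the 59 measured partner genes were higher in CD8+ and 7 in CD8- DCs, against 8.49% and 11.5% of all measured genes. Without the Vps9d1 or the Snx24 call, the 3 genes on the CD8+ side became 2, and the 3 partner genes on the CD8- side became 2 with the 75th percentile filter and at 4-fold. No other count moved by over 1.5 times and no median moved by 0.3 or more. Of single genes, Snx16 differed by -0.29 without the _x_at, _s_at and _a_at probe sets. With probe sets averaged, Igf2r differed by 3.32, Sorl1 by -1.48 and Wls by -2.22. Wls differed by -3.29 without the _x_at, _s_at and _a_at probe sets and by -2.02 with low values raised to the floor. The causes were not tested. Signals near the floor are compressed by background, which limits what can be said of the 7 genes below it. No paired analysis was possible because each population has 1 array and no test was made.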

Other observations

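A pair of probe sets shared by Chmp1b and 2610002M06Rik were left out of the gene values because they name more than 1 gene. The measured one gave 3.96 on the CD8+ array and 4.69 on the CD8- array, which is a difference of -0.73 close to the floor, against 0.26 and 0.32 at the single-gene probe sets of Chmp1b. The other was below the floor on each array (2.92 and 3.71), so its difference is not read.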
